A study of Homo sapiens with 6 samples.

Results

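Of 9 genes for enzymes of the citric acid cycle outside succinate dehydrogenase, cytosolic malate dehydrogenase MDH1 fell most with TAF2, by 11.4%, and the catalytic isocitrate dehydrogenase subunit IDH3A rose by 11.7%. The genes are CS, IDH3A, IDH3B, OGDH, SUCLG1, SUCLG2, FH, MDH1 and MDH2. They were chosen by name, with earlier results of these data known. All 9 were found among the 26475 genes of the deposited table, and all 9 had enough counts to be tested. RNA sequencing compared TAF2-expressing HepG2 cells with eGFP-expressing HepG2 cells, 3 libraries each, from exponentially growing cultures. HepG2 is an established human line from a liver tumour with many traits of hepatocytes, TAF2 belongs to the TFIID complex that helps RNA polymerase II start transcription, and enhanced green fluorescent protein (eGFP) is a reporter. The labels give no other treatment, and do not say whether a group is 1 clone or a pool, or how the proteins were introduced. Separate cultures behind the 3 libraries are not stated either. The p-values therefore reflect the spread between libraries alone, and that spread may be technical.

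The citric acid cycle oxidises acetyl-CoA in the mitochondrial matrix and passes the electrons to NADH and ubiquinone. Citrate synthase joins acetyl-CoA to oxaloacetate, the isocitrate and 2-oxoglutarate dehydrogenases release carbon dioxide, succinyl-CoA ligase makes GTP or ATP, and fumarase and malate dehydrogenase restore oxaloacetate. In hepatocytes the cycle also feeds gluconeogenesis, lipid synthesis and amino acid metabolism through the citrate, malate and 2-oxoglutarate that leave it.

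TAF2 itself held 50.1, 48.3 and 47.4 CPM (counts scaled to library size) in TAF2 libraries, against 35.8, 40.4 and 37.5 CPM in eGFP libraries, a 1.28-fold difference (log2 fold change 0.36, SE 0.046, adjusted p = 1.44e-08). The libraries held 22276308 to 28024004 counts each. All 10 liver markers were detected, with a summed level of 40600 to 42400 CPM in TAF2 and 50500 to 51900 CPM in eGFP libraries. APOB alone held 18900 to 20900 CPM in TAF2 and 22100 to 23800 CPM in eGFP libraries. FGB was higher in TAF2 libraries (86.4 to 96.1 CPM, against 58.2 to 59.3 CPM in eGFP libraries). TTR overlapped between groups, and the remaining liver markers were lower in TAF2 libraries. Of 5 blood cell markers PTPRC and CD3E were at 0 everywhere, and the sum of 2270 to 2320 CPM in TAF2 and 1940 to 2060 CPM in eGFP libraries was almost all LYZ. Of 6 fibroblast markers DCN and LUM were at 0, and the sum of 20.4 to 21.8 CPM in TAF2 and 8.14 to 9.22 CPM in eGFP libraries was mostly PDGFRB. Of 5 endothelial markers KDR and EMCN were at 0, and the sum was 0.549 to 0.714 CPM in TAF2 and 0.295 to 1.08 CPM in eGFP libraries. The part of these marker levels in the results was not tested. Fewer cells of a kind and less RNA per cell cannot be told apart in bulk samples.

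In all, 5 differences passed the threshold among the 9 enzymes, an adjusted p of 0.05 in edgeR's quasi-likelihood test: IDH3A was higher, and IDH3B, OGDH, SUCLG2 and MDH1 were lower with TAF2. That is 5 of 9 members (55.6%), while 43.0% of all 12902 tested genes were called. Among the 4372 genes whose mean level lay between those of the lowest and the highest of the 9, IDH3A at 44.3 CPM and CS at 349 CPM, 54.5% were called. The share called is therefore near that of other genes of such levels. Of the 9, 1 rose (11.1%), beside 20.6% of all tested genes, and 4 fell (44.4%), beside 22.4% of all tested genes and 25.2% of those in the same CPM range. These shares of 9 genes were not tested against each other. DESeq2 called 3 of the 9 and 4307 genes in all, against 5 and 5548 in edgeR. Without eGFP replicate 1 edgeR called 2 of the 9 and 5005 genes in all, and without TAF2 replicate 3 it called 3 of the 9 and 4800 genes in all. Its test against a change of 1.1-fold called 0 of the 9, with MDH1 alone at an unadjusted p under 0.05, and 2614 genes in all. The median log2 fold change of the 9 was -0.029, beside -0.0027 for all tested genes, and their median absolute log2 fold change was 0.086, beside 0.126 for all tested genes and 0.092 for those in the same CPM range. The same 5 members had no overlap between groups (55.6%), which held for 50.6% of all tested genes. Together the 9 genes took 0.123% ± 0.000833 of counts in TAF2 and 0.127% ± 0.0017 in eGFP libraries (SD, n = 3 each).

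**Figure D1:**
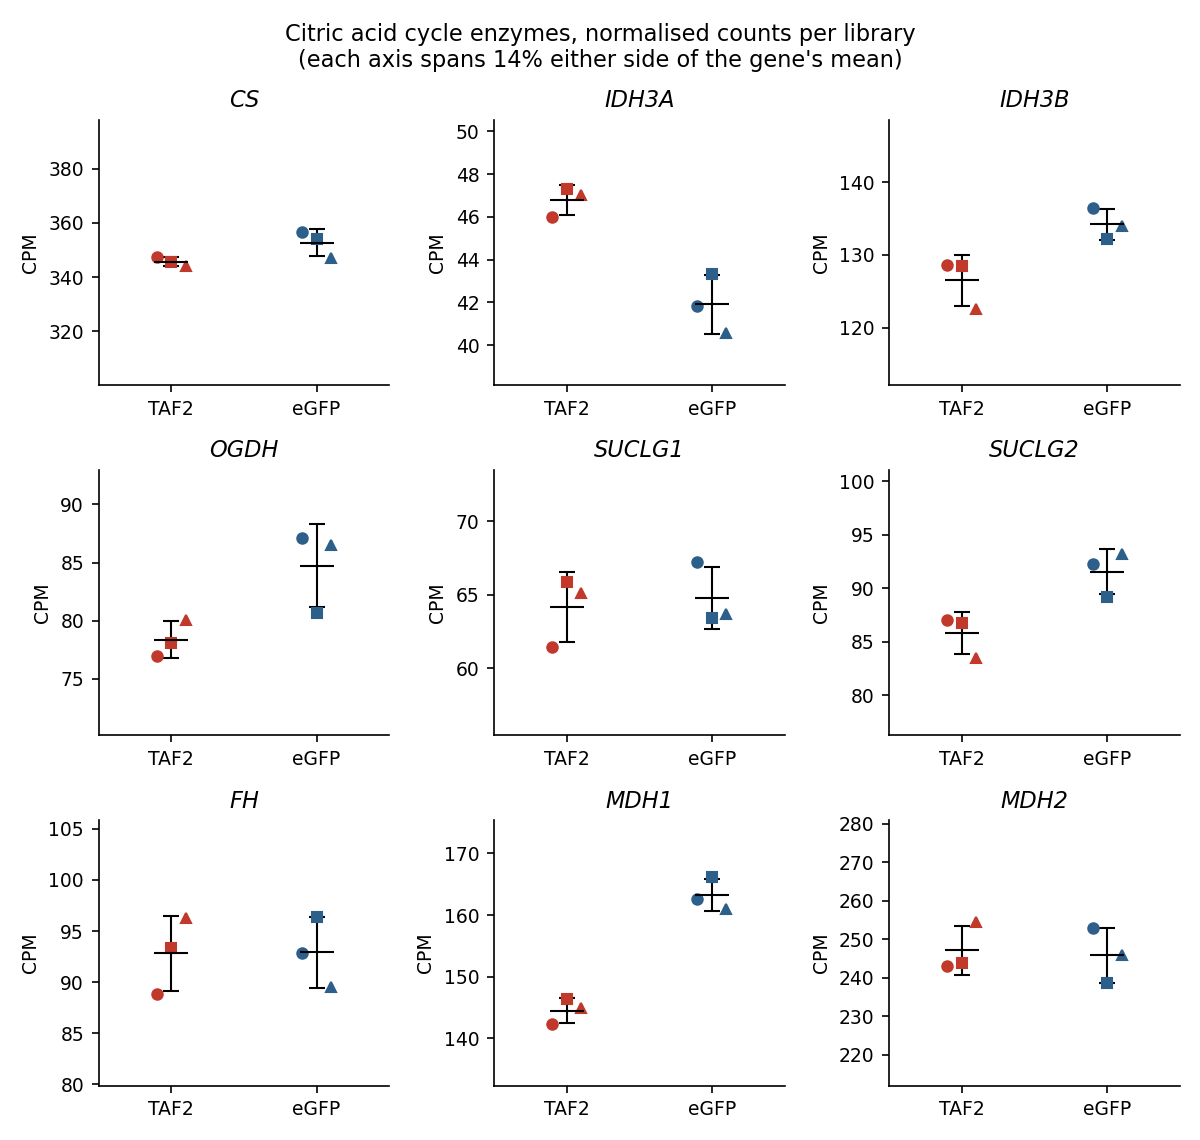
Level of each enzyme gene in CPM (vertical axis, which does not start at 0 and spans the same relative range for every gene) in 3 TAF2 (left, red) and 3 eGFP (right, blue) libraries. Circles, squares and triangles are replicates 1, 2 and 3, and bars are the mean and SD. MDH1 lies at 142 to 146 CPM in TAF2 and 161 to 166 CPM in eGFP libraries, and IDH3A is the only one of the 9 with all TAF2 libraries above all eGFP libraries.

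The malate dehydrogenases parted. MDH1 interconverts malate and oxaloacetate in the cytosol, where it serves the malate-aspartate shuttle, and MDH2 does so in the matrix as the last enzyme of the cycle. MDH1 (chromosome 2, 63588963 to 63607197, GRCh38.p14) had 142.3, 146.3 and 144.9 CPM in TAF2 libraries, against 162.6, 166.1 and 161.0 CPM in eGFP libraries. Every TAF2 library was below every eGFP library, by more than the spread within either group. Its mean fell by 11.4% to 144.5 ± 2.00 CPM with TAF2, against 163.2 ± 2.65 CPM with eGFP (SD, n = 3 each; log2 fold change -0.18, SE 0.026, adjusted p = 4.53e-07). The gene lies within the span of WDPCP, which had 39 to 60 counts in a library against 3511 to 4408 for MDH1.

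MDH2 (chromosome 7, 76048106 to 76067508) had 243.1, 243.8 and 254.5 CPM in TAF2 libraries, against 252.9, 238.7 and 245.9 CPM in eGFP libraries. The groups overlapped, and the log2 fold change of 0.0072 had a 95% interval of -0.044 to 0.058 (adjusted p = 0.849). Within each library the ratio of MDH1 to MDH2 counts was 0.5855, 0.6001 and 0.5693 with TAF2, against 0.643, 0.696 and 0.655 with eGFP. This ratio needs no scaling between libraries. Its log2 value differed by -0.18 (SE 0.041) and the groups did not overlap, with an exact permutation p of 0.10 (two-sided, 0.15 adjusted over 3 ratios), the smallest that 3 libraries against 3 allow.

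The NAD-dependent isocitrate dehydrogenase of the cycle is built from a catalytic alpha subunit (IDH3A) and from beta (IDH3B) and gamma (IDH3G) subunits, and its alpha and beta genes moved in opposite directions. IDH3A (chromosome 15, 78149362 to 78171945) had 46.0, 47.3 and 47.0 CPM in TAF2 libraries, against 41.8, 43.3 and 40.6 CPM in eGFP libraries. All TAF2 libraries were above all eGFP libraries. The rise was 11.7%, to 46.8 ± 0.689 CPM with TAF2, against 41.9 ± 1.38 CPM with eGFP (SD, n = 3 each; log2 fold change 0.16, SE 0.043, adjusted p = 0.00227). IDH3A had the fewest counts of the 9, between 963 and 1317 in a library, so counting error alone is 3.22% at the lowest. The 3′ end of its span overlaps ACSBG1, which had at most 10 counts in a library.

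IDH3B (chromosome 20, 2658395 to 2664216) had 128.6, 128.5 and 122.5 CPM in TAF2 libraries, against 136.4, 132.2 and 134.0 CPM in eGFP libraries. The groups did not overlap, but TAF2 replicate 3 lay farthest out. The level fell by 5.77% (log2 fold change -0.086, SE 0.028, adjusted p = 0.0124). Without TAF2 replicate 3 the adjusted p was 0.119, without eGFP replicate 1 it was 0.079, and in DESeq2 it was 0.0695, so the call rests on the choice of test and on single libraries. IDH3G, not among the 9, had a log2 fold change of -0.028 with a 95% interval of -0.14 to 0.084.

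The ratio of IDH3A to IDH3B counts was 0.358, 0.368 and 0.384 in TAF2 libraries, against 0.307, 0.328 and 0.303 in eGFP libraries. Its log2 value was higher by 0.24 (SE 0.046) with no overlap between groups, again at the smallest exact permutation p of 0.10 (two-sided, 0.15 adjusted). This was the largest shift of the 3 partner ratios compared.

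**Figure D2:**
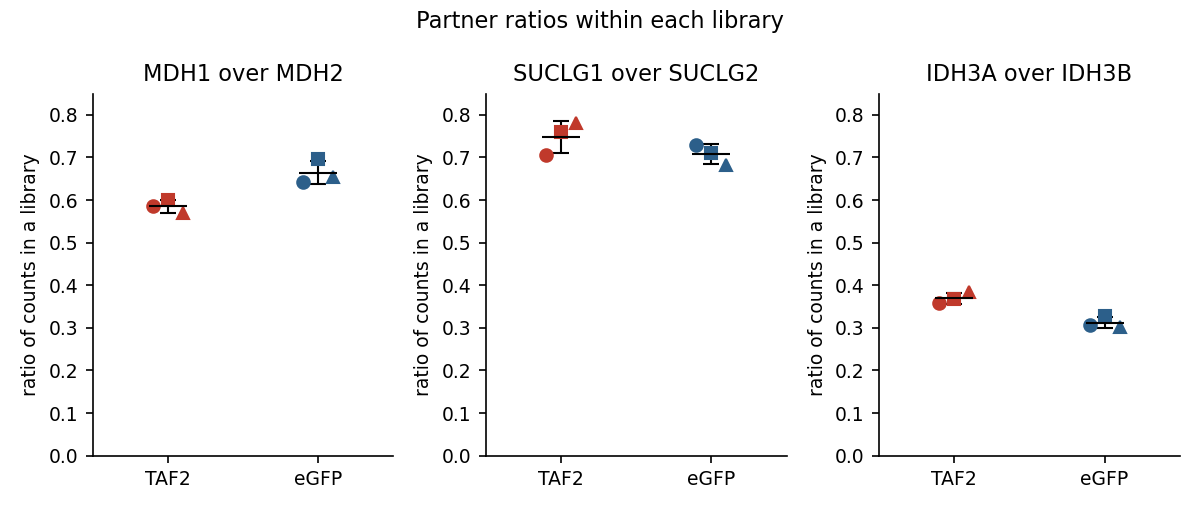
Ratio of counts of the named partner genes within each library (vertical axis from 0), TAF2 left in red and eGFP right in blue, with mean and SD of 3 libraries. The MDH1 to MDH2 ratio is 0.5693 to 0.6001 with TAF2 and 0.643 to 0.696 with eGFP, the IDH3A to IDH3B ratio is 0.358 to 0.384 with TAF2 and 0.303 to 0.328 with eGFP, and the SUCLG1 to SUCLG2 ratio overlaps between groups.

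OGDH, which encodes the E1 subunit that decarboxylates 2-oxoglutarate in the 2-oxoglutarate dehydrogenase complex, lies on chromosome 7 (44606627 to 44709066). It had 77.0, 78.1 and 80.1 CPM in TAF2 libraries, against 87.1, 80.6 and 86.5 CPM in eGFP libraries. The groups were separated by the narrow gap between TAF2 replicate 3 and eGFP replicate 2. OGDH fell by 7.59% (log2 fold change -0.11, SE 0.035, adjusted p = 0.00719), and without eGFP replicate 1 it was not called (adjusted p = 0.0688). The E2 gene of the complex, DLST, had a log2 fold change of -0.033 with a 95% interval of -0.089 to 0.024 and was not called. DLD, the E3 subunit that the complex shares with pyruvate dehydrogenase, rose by 0.11 on the log2 scale, to 93.5 CPM with TAF2 against 86.6 CPM with eGFP (adjusted p = 0.00462).

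Succinyl-CoA ligase pairs the alpha subunit SUCLG1 with a beta subunit that sets the nucleotide, SUCLG2 for GTP or SUCLA2 for ATP. SUCLG2 (chromosome 3, 67360460 to 67654612) had 87.0, 86.8 and 83.5 CPM in TAF2 libraries, against 92.3, 89.2 and 93.2 CPM in eGFP libraries. The groups did not overlap, and the level fell by 6.39% (log2 fold change -0.095, SE 0.033, adjusted p = 0.0165). This call was the least stable of the 5: the adjusted p was 0.0615 without eGFP replicate 1, 0.0801 without eGFP replicate 3, 0.106 without TAF2 replicate 3 and 0.0814 in DESeq2.

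SUCLG1 (chromosome 2, 84423528 to 84459280) had 61.5, 65.9 and 65.1 CPM in TAF2 libraries, against 67.2, 63.4 and 63.7 CPM in eGFP libraries. The groups overlapped, and the 95% interval of the log2 fold change was -0.092 to 0.063 (adjusted p = 0.796). SUCLA2, not among the 9, had a log2 fold change of -0.062 with an interval of -0.155 to 0.031. The SUCLG1 to SUCLG2 ratio was 0.706, 0.759 and 0.780 in TAF2 libraries, against 0.729, 0.711 and 0.683 in eGFP libraries, with a log2 difference of 0.080 (SE 0.051) and an exact permutation p of 0.30 (two-sided, 0.30 adjusted).

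CS, citrate synthase, opens the cycle and is often measured as a marker of mitochondrial content (chromosome 12, 56271699 to 56300330). It had 347.3, 345.5 and 344.0 CPM in TAF2 libraries, against 356.8, 354.2 and 347.1 CPM in eGFP libraries. The lowest eGFP library fell below the highest TAF2 library by less than 1 CPM, so the groups just overlapped. The log2 fold change was -0.029 with a 95% interval of -0.075 to 0.016 (adjusted p = 0.302). With 7872 to 9675 counts in a library it was the most deeply counted of the 9, and this interval is also the narrowest.

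FH, fumarase, acts in the matrix and, as a product of the same gene, in the cytosol (chromosome 1, 241497603 to 241519755). It had 88.9, 93.3 and 96.2 CPM in TAF2 libraries, against 92.8, 96.4 and 89.5 CPM in eGFP libraries. The group means differed by less than either SD, 92.8 ± 3.71 CPM with TAF2 and 92.9 ± 3.46 CPM with eGFP (n = 3 each), and the log2 fold change of 0.0002 had an interval of -0.069 to 0.069 (adjusted p = 0.998). Each interval of the 4 genes without a call thus leaves room for changes of several percent.

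**Figure D3:**
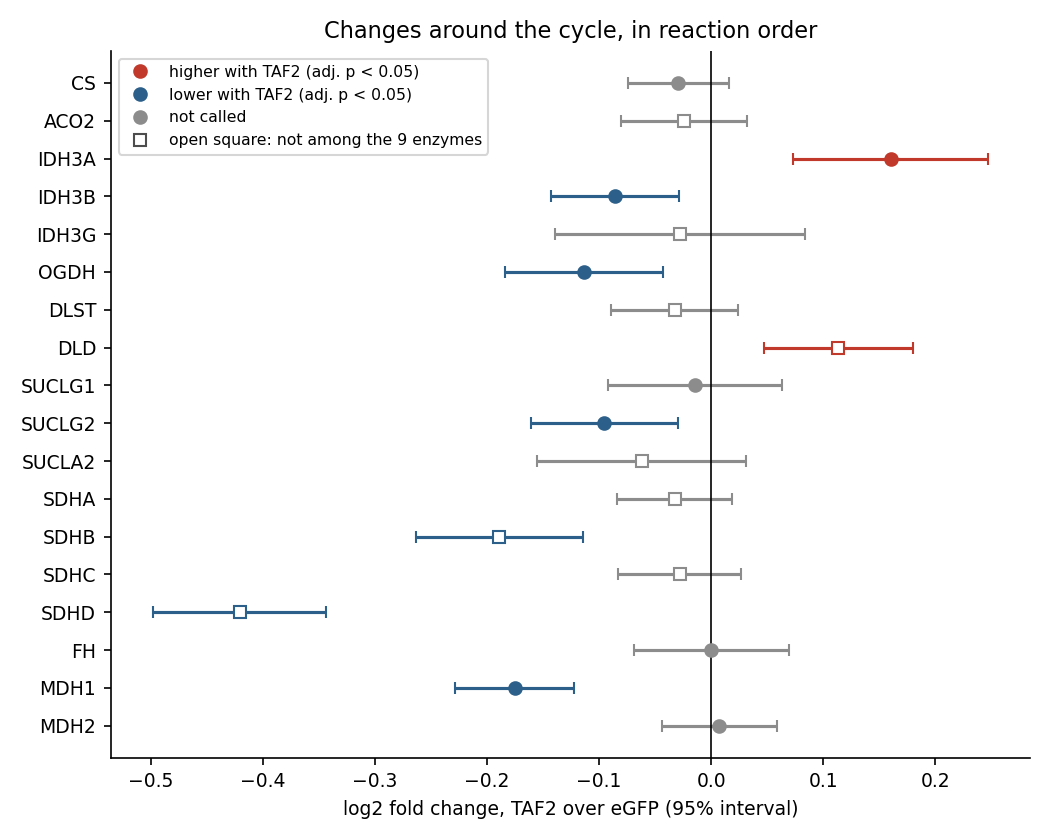
Log2 fold change of TAF2 over eGFP (horizontal axis, 95% interval from the quasi-likelihood fit) for subunits of the cycle from citrate synthase at the top to malate dehydrogenase at the bottom. Filled circles are the 9 enzymes and open squares other subunits, red for higher and blue for lower at an adjusted p of 0.05. IDH3A at 0.16 stands right of 0, MDH1 at -0.18 left, and SDHD at -0.42 farthest left.

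The largest change among them, that of MDH1, was smaller in absolute value than that of TAF2 itself.

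**Figure D4:**
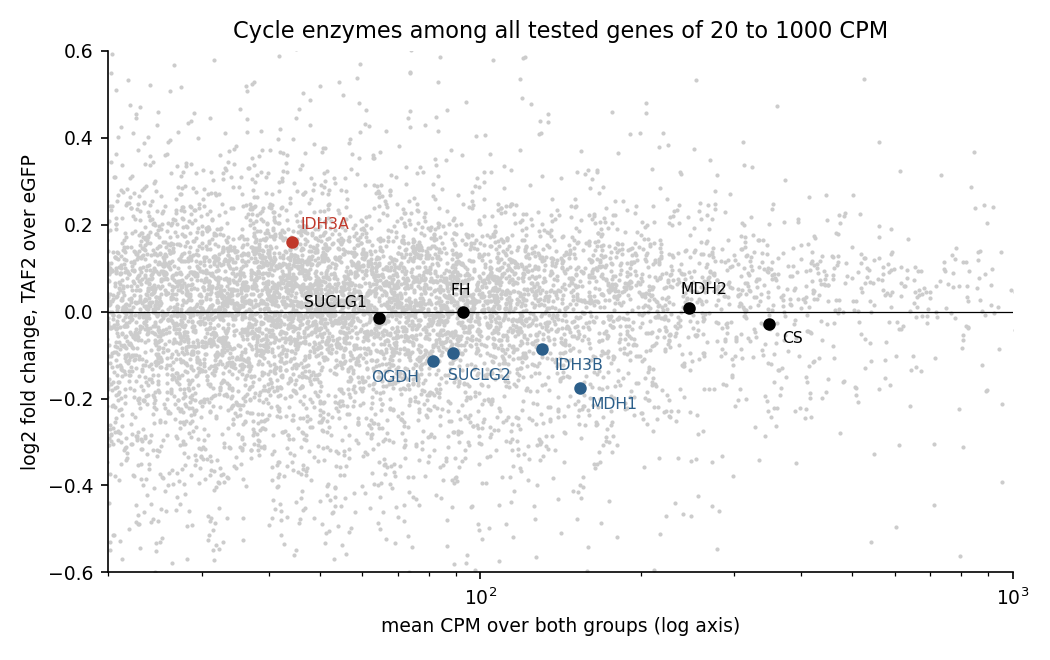
Log2 fold change of TAF2 over eGFP (vertical axis, cropped at 0.6 either side) against mean level in CPM (horizontal log axis) for all tested genes in the plotted range (grey), with the 9 enzymes named. Red is higher, blue lower and black not called; the 9 lie between -0.18 and 0.16.

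Levels of different genes can be compared only per length, and CPM were divided here by the mean length in kilobases (kb) of the GENCODE 29 transcripts matched to the RefSeq accessions that the deposited table lists for a gene. On this scale MDH2 was highest in TAF2 libraries at 154 ± 3.98 CPM per kb, followed by CS at 116 ± 0.555, MDH1 at 97.7 ± 1.37, IDH3B at 90.9 ± 2.51 and FH at 51.6 ± 2.07 CPM per kb (SD, n = 3 each). SUCLG2 at 44.4 ± 1.02 and SUCLG1 at 43.5 ± 1.61 CPM per kb overlapped across libraries, and OGDH at 25.0 ± 0.499 and IDH3A at 11.3 ± 0.167 CPM per kb were lowest. In eGFP libraries the values were 153 ± 4.42 CPM per kb for MDH2, 119 ± 1.69 for CS, 110 ± 1.76 for MDH1, 96.4 ± 1.51 for IDH3B, 51.7 ± 1.93 for FH, 47.3 ± 1.1 for SUCLG2, 43.9 ± 1.44 for SUCLG1, 27.0 ± 1.14 for OGDH and 10.2 ± 0.332 for IDH3A, the same order. Which transcript is used is not known, and with the longest or the shortest listed transcript the values in TAF2 libraries would be 112 or 381 CPM per kb for MDH2, 87.6 or 107 for MDH1, 81.9 or 103 for IDH3B, 36.5 or 56.6 for SUCLG2 and 18.7 or 44.9 for OGDH. In TAF2 libraries this leaves uncertain the order of MDH2 and CS, of MDH1 and IDH3B, and of FH and SUCLG2. The order of SUCLG2, SUCLG1 and OGDH is uncertain there too, while IDH3A was lowest with any listed transcript. Such limits were not worked out for eGFP libraries, where more of the order may be uncertain.

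Among the isocitrate dehydrogenase subunits, IDH3B exceeded IDH3A 8.04-fold per kb in TAF2 and 9.45-fold in eGFP libraries. IDH3G, at 15.2 CPM per kb in TAF2 and 15.5 in eGFP libraries, was also above IDH3A. The transcript of IDH3A is 4128 bases long, against 1230 to 1545 bases for those of IDH3B. SUCLG2 was 2.22-fold above SUCLA2 per kb in TAF2 and 2.27-fold in eGFP libraries.

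The sequences below end before the annotated start, and where TFIID sits was not measured. They are given for called members with at least 200 of the 250 upstream bases outside any UTR annotated in GENCODE 29. RefSeq promoter windows on GRCh38.p14 were matched for 8 of the 9 genes, all but OGDH, and IDH3A, IDH3B and SUCLG2 met that condition. The sequences are written 5′ to 3′ on the gene's strand. Capitals mark the letters GGGCGG (SP1) or CGGAAG (ETS) on either strand.
IDH3A, chr15:78149112-78149320, plus strand, 250 to 42 bases before the start: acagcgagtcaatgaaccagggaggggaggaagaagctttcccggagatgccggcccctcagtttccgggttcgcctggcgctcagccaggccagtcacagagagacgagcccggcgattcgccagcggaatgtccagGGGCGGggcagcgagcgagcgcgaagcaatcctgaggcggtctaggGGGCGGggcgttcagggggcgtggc
IDH3B, chr20:2664220-2664466, minus strand, 250 to 4 bases before the start: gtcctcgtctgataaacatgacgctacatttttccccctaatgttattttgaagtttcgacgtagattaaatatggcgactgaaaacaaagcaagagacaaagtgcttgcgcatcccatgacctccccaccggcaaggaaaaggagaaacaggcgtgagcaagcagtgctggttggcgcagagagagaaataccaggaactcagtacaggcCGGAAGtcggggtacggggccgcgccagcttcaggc
SUCLG2, chr3:67654615-67654862, minus strand, 250 to 3 bases before the start: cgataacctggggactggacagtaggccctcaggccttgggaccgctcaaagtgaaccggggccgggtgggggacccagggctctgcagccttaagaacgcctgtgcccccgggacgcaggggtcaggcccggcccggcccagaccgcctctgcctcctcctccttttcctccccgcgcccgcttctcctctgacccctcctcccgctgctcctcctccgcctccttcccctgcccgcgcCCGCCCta
The bases farther from the start in the IDH3B and SUCLG2 windows overlap exons of non-coding RNA genes of the opposite strand. The 250-base windows held 70.0% G and C in IDH3A, 51.6% in IDH3B and 71.2% in SUCLG2.

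Both strands of the 250 bases were searched for 6 sets of letters. GGGCGG (SP1) occurred in 42.6% of 35116 promoters, CCAAT in 32.0%, CGGAAG (ETS) in 16.5%, TATAAA (the TATA box) in 10.7% and AAGGTCA (estrogen-related receptor) in 3.44%. The NRF1 letters, a repeat of GCGC with 2 bases of any kind between, occurred in 7.16%. IDH3A, the gene that rose, held GGGCGG 3 times, the third in bases not printed, and the NRF1 letters once, ending at the base before the start. Of the genes that fell, SUCLG2 held GGGCGG once, IDH3B held CGGAAG once and MDH1 held CCAAT once, while OGDH had no window. All 250 bases of the MDH1 window are annotated as UTR, and parts of the other windows are too. Among genes not called, CS held GGGCGG 5 times and CCAAT 2 times, FH held each 2 times, MDH2 held CGGAAG 2 times and SUCLG1 held none of the 6. TATAAA and AAGGTCA were found in 0 of the 8 windows. These matches are descriptions of letters and not of binding.

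None of the 9 genes lies on chromosome 11 or 4, whose genes had median log2 fold changes of -0.27 and -0.18 over 593 and 357 genes of at least 5 CPM. On the chromosomes of the 9 genes these medians, without the member itself, ranged from -0.0007 to 0.038. Neighbours that start within 2 Mb and reach 5 CPM were compared with each member. MDH1 had a neighbour median of -0.0073 over 17 genes, of which 1 was lower than MDH1. For OGDH the median was 0.032 over 25 genes with 2 below OGDH, for SUCLG2 it was 0.014 over 7 genes with 1 below, and for IDH3B it was 0.057 over 29 genes with 5 below. IDH3A had a neighbour median of 0.061 over 17 genes, 14 of which lay below it. Because these 5 were picked for their own change, the side of the neighbour median they lie on is largely set by that choice. Among members not called, FH (0.0002) had a neighbour median of 0.103 over 5 genes, and CS (-0.029) had 0.025 over 66 genes. MDH2 (0.0072) had a neighbour median of 0.016 over 29 genes, and SUCLG1 (-0.015) had -0.063 over 17 genes. The part of the neighbourhood in these changes was not tested.

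**Figure D5:**
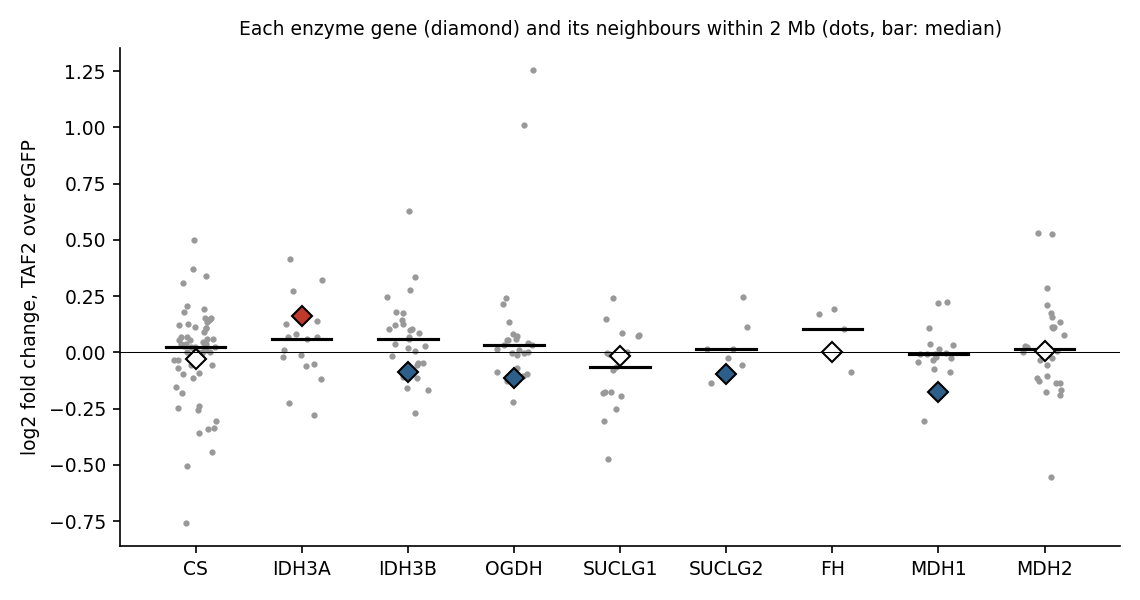
Log2 fold change of TAF2 over eGFP (vertical axis) for each enzyme gene (diamond, red higher, blue lower, white not called) and for its neighbours of at least 5 CPM within 2 Mb (grey dots, spread sideways for clarity, with the median as a bar). MDH1 at -0.18 lies below all but 1 of 17 neighbours, whose median is -0.0073.

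Other genes of the pathway are counted beside all tested genes, of which 22.4% fell and 20.6% rose. Among the 6 other cycle subunits outside succinate dehydrogenase, 1 fell and 1 rose (16.7% each, median log2 fold change -0.030). The 33.3% called is below the 43.0% called among all tested genes. IDH2, the NADP-dependent mitochondrial isocitrate dehydrogenase, fell to 118.9 CPM with TAF2, against 147.3 CPM with eGFP (-0.31, adjusted p = 1.49e-12), and DLD rose as given above. In succinate dehydrogenase and its assembly factors 4 of 8 fell (50%, beside 22.4% of all tested genes) and the other 4 were not called (median log2 fold change -0.15). SDHD (-0.42) and the assembly factor SDHAF2 (-0.33) lie on chromosome 11, while SDHB (-0.19) is on chromosome 1 and the assembly factor SDHAF4 (-0.59, at 2.01 CPM with TAF2 and 3.02 CPM with eGFP) on chromosome 6.

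Genes of pyruvate entry, a list that holds the pyruvate carrier, pyruvate dehydrogenase and the kinases and phosphatases that switch it off and on, fell in 6 of 12 tested (50%, beside 22.4% of all tested genes) and rose in 2 (16.7%, beside 20.6%). The pyruvate dehydrogenase components PDHX (-0.33) and DLAT (-0.30), which fell, both lie on chromosome 11. The carrier subunits MPC2 (-0.24) and MPC1 (-0.17) fell, and so did the kinases PDK1 (-0.23) and PDK3 (-0.18), which inhibit pyruvate dehydrogenase. The catalytic subunit PDHA1 (0.075) and the activating phosphatase PDP1 (0.72, at 3.63 CPM with TAF2 and 2.22 CPM with eGFP) rose. PDK4 was not tested for its low count.

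Enzymes that fill or drain the cycle fell in 5 of 16 tested (31.2%, beside 22.4% of all tested genes) and rose in 3 (18.8%, beside 20.6%). GLUD1, which makes 2-oxoglutarate from glutamate, fell to 602.8 CPM with TAF2, against 820.1 CPM with eGFP (-0.44), and pyruvate carboxylase PC, on chromosome 11, had 92.9 CPM with TAF2, against 130.4 CPM with eGFP (-0.49). The mitochondrial malic enzyme ME2 (0.34) rose. ME1 and ME3 were not tested for low counts, and MMUT was not analysed here. Mitochondrial carriers of cycle intermediates or of metabolites linked to them fell in 4 of 7 tested (57.1%, beside 22.4% of all tested genes). In this list 1 rose (14.3%, beside 20.6%). The glutamate carrier SLC25A22 (-0.46, chromosome 11), the citrate carrier SLC25A1 (-0.15) and the dicarboxylate carrier SLC25A10 (-0.089) fell, and SLC25A12 (0.43), at 13.3 CPM with TAF2 and 9.86 CPM with eGFP, rose. It is 1 of 2 aspartate-glutamate carriers that serve the malate-aspartate shuttle with MDH1. The other, SLC25A13, the main form in liver, had 126.7 CPM with TAF2 and 125.8 CPM with eGFP. SLC25A13 was not called (log2 fold change 0.010, 95% interval -0.046 to 0.066, adjusted p = 0.801). Among other shuttle genes in these lists, SLC25A11 fell (-0.12, adjusted p = 0.0184) and GOT2 rose (0.11, adjusted p = 0.00112). GOT1 was not called (0.027, adjusted p = 0.428).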

How the data were processed

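RNA of 6 HepG2 libraries was prepared with a TruSeq RNA kit and run on a HiSeq3000, per the labels' protocols. The deposited table holds expected counts per gene without normalization, listing RefSeq transcript accessions, and the submitters' processing notes name RSEM and hg38. No source used here names the aligner, the annotation release or the strand setting. Whether reads of overlapping genes were told apart is therefore not known. The 54 values of the 9 genes were all whole (tolerance 0.005).

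Expected counts were rounded, filtered with filterByExpr (12902 genes left), scaled by TMM (factors 0.998 to 1.003) and tested with the quasi-likelihood test of edgeR 4.0.16 (R 4.3.3, robust fit, group as the only term). Benjamini-Hochberg adjustment covered every tested gene, and the threshold was 0.05. The code was tested on simulated data. CPM use the scaled library sizes, and 95% intervals come from the fold change and its F statistic. The biological coefficient of variation was 2.75%, so small differences can be called. Partner ratios used counts with an offset of 0.5 and an exact permutation test over libraries.

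Replicates differed beyond counting error (chi-square of 1.98 to 5.89 for each degree of freedom). All 6 libraries were kept. Positions came from RefSeq on GRCh38.p14, matched by accession for 98.6% of tested genes. The genes named are all 9 enzymes, TAF2 and, for each other list, at most 4 called genes taken by smallest p. Some genes that this rule names are not reported here. Others were chosen after their values were seen. The members and lists were chosen with earlier results of these data known. Alternatives were RLE, upper-quartile and total-count scaling, DESeq2 1.42.0, 2 other filters on low counts, a test against a 1.1-fold change, a replicate block and leaving out each library.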

Additional observations from a re-analysis of the deposited data

How the results depend on the processing

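Over 14 alternatives MDH1 and IDH3A were each called in 13, with log2 fold changes from -0.19 to -0.16 and from 0.14 to 0.19. The exception for both was the edgeR test against a 1.1-fold change, in which 0 members were called (1 at an unadjusted p under 0.05, MDH1) and 2614 genes in all. At unmoved log2 fold changes the adjusted p was then 0.101 for MDH1 (-0.18), 0.366 for IDH3A (0.16), 0.886 for OGDH (-0.11) and 1 for both IDH3B (-0.086) and SUCLG2 (-0.095). Over all alternatives the adjusted p ran from 2.08e-08 to 0.101 for MDH1, 0.000709 to 0.366 for IDH3A, 0.00154 to 0.886 for OGDH, 0.0102 to 1 for IDH3B and 0.0132 to 1 for SUCLG2. DESeq2 called 3 members, without IDH3B (-0.082) and SUCLG2 (-0.091). The cause was not tested. Leaving out each library gave 2 to 5 called members, the 2 without eGFP replicate 1 and 3 without TAF2 replicate 3, and 4800 to 5288 called genes. The log2 fold changes then ran from -0.094 to -0.062 for IDH3B, from -0.14 to -0.090 for OGDH, and from -0.11 to -0.075 for SUCLG2. CS, FH, MDH2 and SUCLG1 were called in 0 of the 14 alternatives, in edgeR or DESeq2.

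The labels do not say whether same-numbered libraries share more than a number. Their deviations correlated at -0.045, -0.091 and -0.103, which cannot decide this, as they are taken from means of 3 libraries. With a replicate block 5 members and 5250 genes were called, and the MDH1 log2 fold change was -0.18 (adjusted p = 5.43e-06). The partner ratios kept their direction without each library, with the block and with an offset of 5 counts. With 3 libraries a group their exact test cannot pass the threshold.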

Other observations

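Enzymes related to the cycle but outside it fell in 3 of 7 tested genes, and the other 4 were not called in edgeR. The 42.9% that fell stands beside 22.4% of all tested genes, and the 0% that rose stands beside 20.6%. In either direction, the 42.9% called is close to the 43.0% called among all tested genes. These shares of 7 genes were not tested. DHTKD1, a relative of OGDH that acts in lysine breakdown, had 20.4 CPM with TAF2, against 25.0 CPM with eGFP (log2 fold change -0.30, adjusted p = 6.88e-05). D2HGDH, which oxidises D-2-hydroxyglutarate, had -0.23. OGDHL, the close relative of OGDH, had 0.24 and was not called (adjusted p = 0.093). MDH1B and ADHFE1 were not tested for low counts.

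Regulators of mitochondrial biogenesis went both ways, with 2 of 9 higher (22.2%, beside 20.6% of all tested genes) and 2 lower (22.2%, beside 22.4%). The coactivators PPARGC1B (0.36, adjusted p = 0.000304) and PPRC1 (0.15) rose, while the nuclear receptor ESRRA, on chromosome 11, had 59.6 CPM with TAF2, against 73.0 CPM with eGFP (-0.29), and the mitochondrial methyltransferase TFB1M had -0.11. TFAM, which packages mitochondrial DNA, had 0.023 and was not called (adjusted p = 0.578).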
